A study of Mus musculus with 16 samples.

Results

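The genes described here are 10 genes of MHC class I antigen presentation and the immunoproteasome (Psmb8, Psmb9, Psmb10, Psme1, Tap1, Tap2, Tapbp, B2m, H2-K1 and H2-D1), out of 21853 protein-coding genes of the mouse annotation. They were chosen by name and not by a measured value, but with earlier results of these data known. For each of them, H3K27ac peaks within 50 kb of any annotated start site were collected from 4 peak lists. Peaks of the 4 lists that overlapped or touched were merged into regions, which gave 84 regions near the 10 genes out of 55203 regions in all. Because several of these genes are neighbours, the 84 regions fall into 6 loci. On chromosome 17 these were the block from Psmb9 to Tap2 with 18 regions, the stretch holding Tapbp and H2-K1 with 23, and H2-D1 with 16. B2m on chromosome 2 had 10 regions, Psmb10 on chromosome 8 had 8, and Psme1 on chromosome 14 had 9.

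The study used ChIP-seq of H3K27ac, an acetylation of histone H3 found at active promoters and enhancers, in bone marrow-derived macrophages (BMDMs). All cells came from C57Bl6 mice of 8-12 weeks and were grown in medium with LCCM, which is medium conditioned by L-929 fibroblasts. Control cells were untreated, IFNγ cells received interferon gamma at 100 ng/mL for 1 h, IFNγ+PJ34 cells received PJ34, an inhibitor of PARP enzymes, at 20 µM from 1 h before the same dose of IFNγ, and PJ34 cells received the inhibitor without IFNγ. Each condition had 2 ChIP replicates and 2 input replicates, and the authors kept the peaks that overlapped in both replicates as 1 list per condition, so no value below carries a replicate error and none was tested. The labels give no altered genotype, and PJ34 is not selective for a single PARP enzyme. In such bulk samples, a change in the share of cells that carry the mark and a change in the mark per cell cannot be told apart.

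The MHC class I pathway shows fragments of a cell's own proteins to CD8 T cells. The proteasome cuts proteins into peptides, and the immunoproteasome is a form of it in which Psmb8, Psmb9 and Psmb10 take the places of the constitutive catalytic subunits. The transporter formed by Tap1 and Tap2 moves peptides into the endoplasmic reticulum, tapasin (Tapbp) holds empty class I molecules next to it, and the loaded complex of a heavy chain (H2-K1 or H2-D1) with β2-microglobulin (B2m) travels to the cell surface. IFNγ is a classical inducer of this pathway in macrophages. Promoters of interferon-induced genes can carry gamma-activated sites (GAS) and interferon-stimulated response elements (ISREs).

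Each deposited peak has a score, and within each list the score was turned into a percentile, so that 99 means a score above that of 99% of the peaks in the same list. The fold enrichment of a peak is the authors' ratio of ChIP signal to local background. Where a region held several peaks of a list, the highest was used. The Control list held 43533 peaks, the IFNγ list 40708, the PJ34 list 44090 and the IFNγ+PJ34 list 42960, and they covered between 42.5 and 52.6 Mb. The files hold no read counts and the depth of the libraries is unknown. In the cell type check, all 10 macrophage markers had a promoter region in all 4 lists, whereas none of 5 T cell, 2 NK cell or 3 epithelial markers had one in any list. Of the other marker genes, Ms4a1 (1 of 4 B cell markers) and Zbtb46 and Xcr1 (2 of 4 dendritic cell markers) had a promoter region in all 4 lists, S100a8 (1 of 4 granulocyte markers) in IFNγ and PJ34, and Pdgfrb (1 of 4 fibroblast markers) in PJ34. The promoter percentile of all 10 macrophage markers was lower in IFNγ than in Control, with a median change of -6.59 points. It was also lower in PJ34 than in Control for all 10, with a median change of -5.12 points. Over all genes with a promoter region in all 4 lists these medians were -1.34 and 0.75, and 36.7% and 59.1% of those genes were higher. In IFNγ+PJ34, 7 of the 10 markers were higher than in IFNγ (median 4.69 points, -1.25 over all genes). The same number were higher than in PJ34 (median 3.4 points, -4.13 over all genes). The part of these shifts in the values below was not tested.

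The start sites of the class I presentation genes carried H3K27ac in every condition. All 10 genes had a region within 1 kb of a start site in all 4 lists, which was the case for 48.3% of all protein-coding genes. By percentile these regions stood near the top: 8 of the 10 promoter regions found in all 4 lists lay above the 90th percentile in each of them. The exceptions were Tap2 and the more 5′ of the 2 Tapbp regions, which Tapbp shares with Zbtb22. Promoters in general also ranked high. Over the 10558 genes with a promoter region in all 4 lists, the median percentile ran from 82.9 (IFNγ+PJ34) to 87.5 (PJ34). The share of all promoters above the 90th percentile was not counted. Since the promoters of the 10 class I presentation genes were all marked in the Control list, differences between lists are given below as differences in level. Because a percentile can hardly rise near the top of a list, the fold enrichments are given beside it. Fold enrichments were lower overall in IFNγ than in Control: their median ratio over the 25923 regions found in both lists was 0.777, a log2 shift of -0.36. Ratios between lists are therefore given relative to that median, as centred log2 ratios, where 0 is the change of the typical region. The corresponding median ratios were 0.885 for PJ34 over Control, 1.10 for IFNγ+PJ34 over IFNγ and 0.954 for IFNγ+PJ34 over PJ34.

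**Figure D1:**
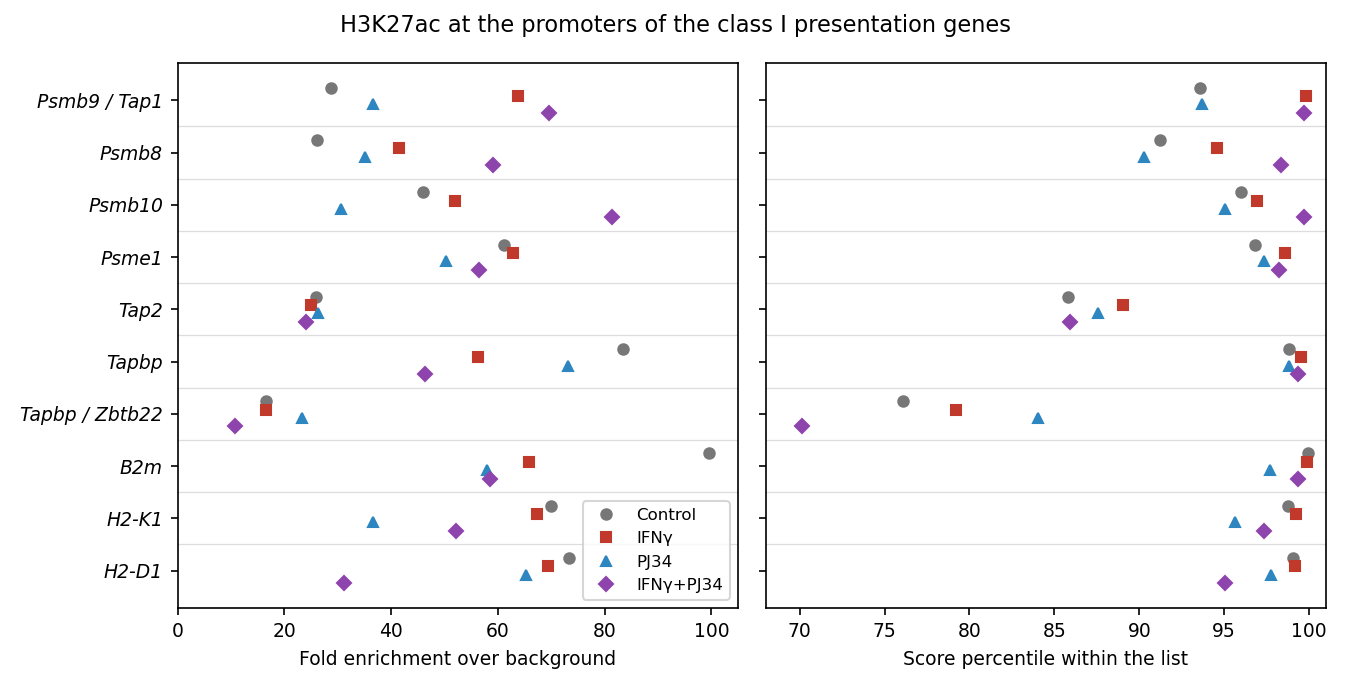
Fold enrichment over background (left, linear axis from 0) and score percentile within the list (right, axis cut at 68) of the 10 promoter regions of the class I presentation genes found in all 4 lists. Each symbol is 1 peak list, made by the authors from 2 replicates, and there are no error bars. At Psmb9/Tap1 and Psmb8 the lists made with IFNγ lie to the right of those made without it, whereas at B2m and the main Tapbp region the Control list has the highest fold enrichment.

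Among the promoters of these genes, those of Psmb9, Tap1 and Psmb8 showed the clearest rise from Control to IFNγ. Psmb9, a catalytic subunit, and Tap1, the first chain of the peptide transporter, are transcribed in opposite directions from start sites 225 bases apart, and they share a single region (chr17:34185854-34188702, GRCm38). Its fold enrichment was 28.8 in Control, 36.6 in PJ34, 63.8 in IFNγ and 69.5 in IFNγ+PJ34. When the peaks of a list were ordered by p-value, it stood at position 2783 in Control and 2794 in PJ34, but at position 80 in IFNγ and 139 in IFNγ+PJ34. The centred log2 ratio was 1.51 for IFNγ over Control, above that of 97.2% of all regions found in both lists, and 0.99 for IFNγ+PJ34 over PJ34, above that of 84.0%. Both lists made with IFNγ thus exceeded both lists made without it, and with PJ34 present the IFNγ level differed little, at a centred log2 ratio of -0.02 for IFNγ+PJ34 over IFNγ. The share of all regions with the lists in that order was not counted.

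Psmb8, another catalytic subunit, lies between Tap1 and Tap2 and had its own region (chr17:34196818-34199475). The fold enrichment there was 26.2 in Control, 35.2 in PJ34, 41.4 in IFNγ and 59.1 in IFNγ+PJ34, so again the lists with IFNγ were the higher ones. The position in the list moved from 3819 in Control to 2219 in IFNγ, and from 4274 in PJ34 to 703 in IFNγ+PJ34. The centred log2 ratios were 1.03 for IFNγ over Control, above that of 91.6% of all regions found in both lists, and 0.82 for IFNγ+PJ34 over PJ34, above that of 79.9%. Without centring the log2 ratio for IFNγ over Control was 0.66, which is less than 2-fold. How many of all regions had both IFNγ lists above both lists without it was not counted.

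Psmb10, the remaining inducible subunit, lies alone on chromosome 8 (region chr8:105936648-105938653). Its fold enrichment was 46.0 in Control, 30.7 in PJ34, 52.0 in IFNγ and 81.5 in IFNγ+PJ34. The difference between IFNγ and Control was small here, with a centred log2 ratio of 0.54 that was 0.18 before centring. With PJ34 present it was larger, at 1.48 for IFNγ+PJ34 over PJ34, and the position moved from 2190 to 128. The IFNγ+PJ34 list thus stood apart from the other 3 at Psmb10.

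Psme1 encodes the α subunit of the PA28 activator, a cap that opens the proteasome. Its region (chr14:55577703-55579678) had a fold enrichment of 61.1 in Control, 50.3 in PJ34, 62.8 in IFNγ and 56.4 in IFNγ+PJ34. These 4 values lay close together, and the centred log2 ratios were 0.40 for IFNγ over Control and 0.23 for IFNγ+PJ34 over PJ34. The partner subunit Psme2, which lies in the same window but is not one of the 10 genes, had a promoter region with a fold enrichment of 61.6, 68.2, 81.2 and 71.2 in Control, IFNγ, PJ34 and IFNγ+PJ34.

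Tap2, the second chain of the transporter, and tapasin did not show the rise seen at Tap1. At Tap2 (chr17:34203727-34206122) the fold enrichment was 25.9 in Control, 26.4 in PJ34, 25.01 in IFNγ and 24.1 in IFNγ+PJ34, so that all 4 lists gave similar values here. At the main Tapbp region (chr17:33918710-33921652) the fold enrichment was 83.5 in Control, 73.2 in PJ34, 56.4 in IFNγ and 46.4 in IFNγ+PJ34, the lower values being those with IFNγ. Its percentile rose nevertheless from 98.8 to 99.5 between Control and IFNγ. The weaker region at the 5′ Tapbp start (chr17:33915203-33917074) had a fold enrichment of 16.5 in Control, 23.4 in PJ34, 16.5 in IFNγ and 10.7 in IFNγ+PJ34.

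The light chain and the heavy chains were among the most strongly marked of the genes in Control, and their fold enrichment before centring was not higher in IFNγ. B2m had a broad region of 8674 bp (chr2:122145393-122154066) covering the gene, with a fold enrichment of 99.5 in Control, 58.0 in PJ34, 65.8 in IFNγ and 58.6 in IFNγ+PJ34. It stood at position 31 in Control, 1030 in PJ34, 63 in IFNγ and 294 in IFNγ+PJ34, so the list with PJ34 alone gave it the lowest rank. The H2-K1 region (chr17:33998603-34001359) had a fold enrichment of 70.0 in Control, 36.6 in PJ34, 67.3 in IFNγ and 52.2 in IFNγ+PJ34. The H2-D1 region (chr17:35261478-35265840) had a fold enrichment of 73.3 in Control, 65.3 in PJ34, 69.5 in IFNγ and 31.2 in IFNγ+PJ34. The heavy chains thus had their lowest value in different lists, PJ34 for H2-K1 and IFNγ+PJ34 for H2-D1. For Tap2, H2-K1 and H2-D1 the direction from Control to IFNγ depended on centring: the centred log2 ratios were 0.31, 0.31 and 0.29, and without centring they were -0.05, -0.06 and -0.08. The authors kept uniquely mapped reads, and of the 32-base windows in these regions 35.5% at H2-K1 and 21.9% at H2-D1 occurred elsewhere in the genome, against 0.674% at Psmb9 and Tap1 and 2.88% at B2m. The part of this in the heavy chain values was not tested.

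Classical class I promoters are known for a shared block in which an NF-κB site stands beside an ISRE. This block is shown because, of the genes with a RefSeq promoter window, only the heavy chains held the lettering GGGGATTCC. Capitals mark the NF-κB form GGGGATTCC and the ISRE core read as GAANNGAAA on either strand, and each sequence runs 5′ to 3′ on the gene's own strand (GRCm38).
H2-K1 (chr17:34000429-34000458, minus strand): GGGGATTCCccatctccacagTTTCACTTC
H2-D1 (chr17:35262923-35262952, plus strand): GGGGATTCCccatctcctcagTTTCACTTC
The stretches shared 29 of 30 bases. The difference was A18T, with H2-K1's base first and positions counted from the first base of the stretch. The NF-κB form began 111 bases before the RefSeq start of H2-K1 and 171 bases before that of H2-D1, and the ISRE core began 90 and 150 bases before them. In GENCODE M21 another H2-D1 start lies further 5′, at position 35262730, and the H2-D1 stretch lies downstream of it within annotated exon, while the H2-K1 stretch overlaps no annotated exon. Only 0.25% of 32851 RefSeq promoter windows (250 bases before to 50 after a start) and 0.197% of all regions, searched within 150 bases of the highest summit, held GGGGATTCC, and 7.52% and 9.69% held GAANNGAAA. Both letterings were added after the promoters had been read. The 250 bases upstream of H2-K1, which contain the block, were:
H2-K1 upstream (chr17:34000348-34000597, minus strand): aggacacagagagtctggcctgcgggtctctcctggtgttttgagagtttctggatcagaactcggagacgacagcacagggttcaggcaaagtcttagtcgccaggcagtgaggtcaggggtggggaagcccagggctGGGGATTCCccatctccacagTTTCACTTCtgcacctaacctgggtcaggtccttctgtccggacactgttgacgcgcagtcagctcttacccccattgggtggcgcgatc

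B2m lies on another chromosome and held an ISRE core in the other order, GAAANNGAA, beginning 139 bases before its start. It is shown beside H2-K1 because its product pairs with the heavy chains while its window held no match to GGGGATTCC. For NF-κB only the letterings GGGGATTCC and GGGANTTCC were searched. A site of another length or lettering would have been missed, so the absence of an NF-κB site from B2m is not shown.
B2m upstream (chr2:122147437-122147685, plus strand, ISRE core in capitals): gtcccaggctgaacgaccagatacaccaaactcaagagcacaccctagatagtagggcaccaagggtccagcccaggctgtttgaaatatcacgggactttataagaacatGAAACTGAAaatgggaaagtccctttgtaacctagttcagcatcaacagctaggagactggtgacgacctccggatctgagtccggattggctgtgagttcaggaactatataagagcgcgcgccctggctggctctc
Of the 9 genes with a RefSeq promoter window, B2m and Psme1 held GAAANNGAA, against 8.56% of all windows. In Psme1 the match began 10 bases after the start, overlapping a GAANNGAAA match. Psmb8 was the 1 gene of the 9 with the GAS lettering TTCNNNGAA, found in 8.3% of all windows. The GAS match, in capitals, began 97 bases before its RefSeq start, and it lies within an annotated exon, downstream of the most 5′ GENCODE start at 34197721.
Psmb8 (chr17:34198088-34198116, plus strand): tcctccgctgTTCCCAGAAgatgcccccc
The third lettering, GGGANTTCC for NF-κB, was in none of the 9 windows and in 1.68% of all windows. None of the 5 letterings was in the window of Tap1, Psmb9, Psmb10 or Tapbp. Around the highest summits of the 84 regions, TTCNNNGAA was found in 5 (8.85% of all regions), GAAANNGAA in 7 (10% of all), GGGANTTCC in 1 (1.04% of all), GAANNGAAA in 14 and GGGGATTCC in 0. Among the promoter regions of the 10 genes, only that of Psmb10 held a match around its highest summit, with both GAAANNGAA and GAANNGAAA. All of these matches were searched on both strands, and they describe letters and not bound sites.

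Outside the start sites, a region of 3388 bp lying 2.42 kb upstream of H2-D1 (chr17:35256928-35260315, intergenic) behaved like the Psmb9 and Tap1 promoter region, and it was picked out after its values had been seen. Its fold enrichment was 25.5 in Control, 26.1 in PJ34, 53.1 in IFNγ and 52.5 in IFNγ+PJ34. Its percentile was 89.8, 86.2, 97.1 and 97.7 in the same order. Both lists with IFNγ were above both lists without it, and the fold enrichments hardly differed with PJ34, while the H2-D1 promoter next to it had its lowest value in IFNγ+PJ34. How many of all regions had the lists in this order was not counted. The centred log2 ratios were 1.42 for IFNγ over Control, above that of 96.5% of all regions found in both lists, and 1.08 for IFNγ+PJ34 over PJ34, above that of 85.5%. Of its 32-base windows, 14.3% occurred elsewhere in the genome. The 300 bases around its highest summit, found in IFNγ+PJ34, are shown because they held a GAS match (TTCTCAGAA) overlapping an ISRE core match (TTCACTTTC), the joined letters being in capitals.
Upstream of H2-D1 (chr17:35258068-35258367, plus strand): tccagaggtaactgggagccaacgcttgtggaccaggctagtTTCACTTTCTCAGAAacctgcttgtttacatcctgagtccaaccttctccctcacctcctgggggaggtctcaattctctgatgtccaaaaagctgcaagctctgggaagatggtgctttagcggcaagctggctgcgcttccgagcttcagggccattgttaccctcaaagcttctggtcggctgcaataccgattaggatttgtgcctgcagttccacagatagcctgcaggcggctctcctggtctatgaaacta

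**Figure D2:**
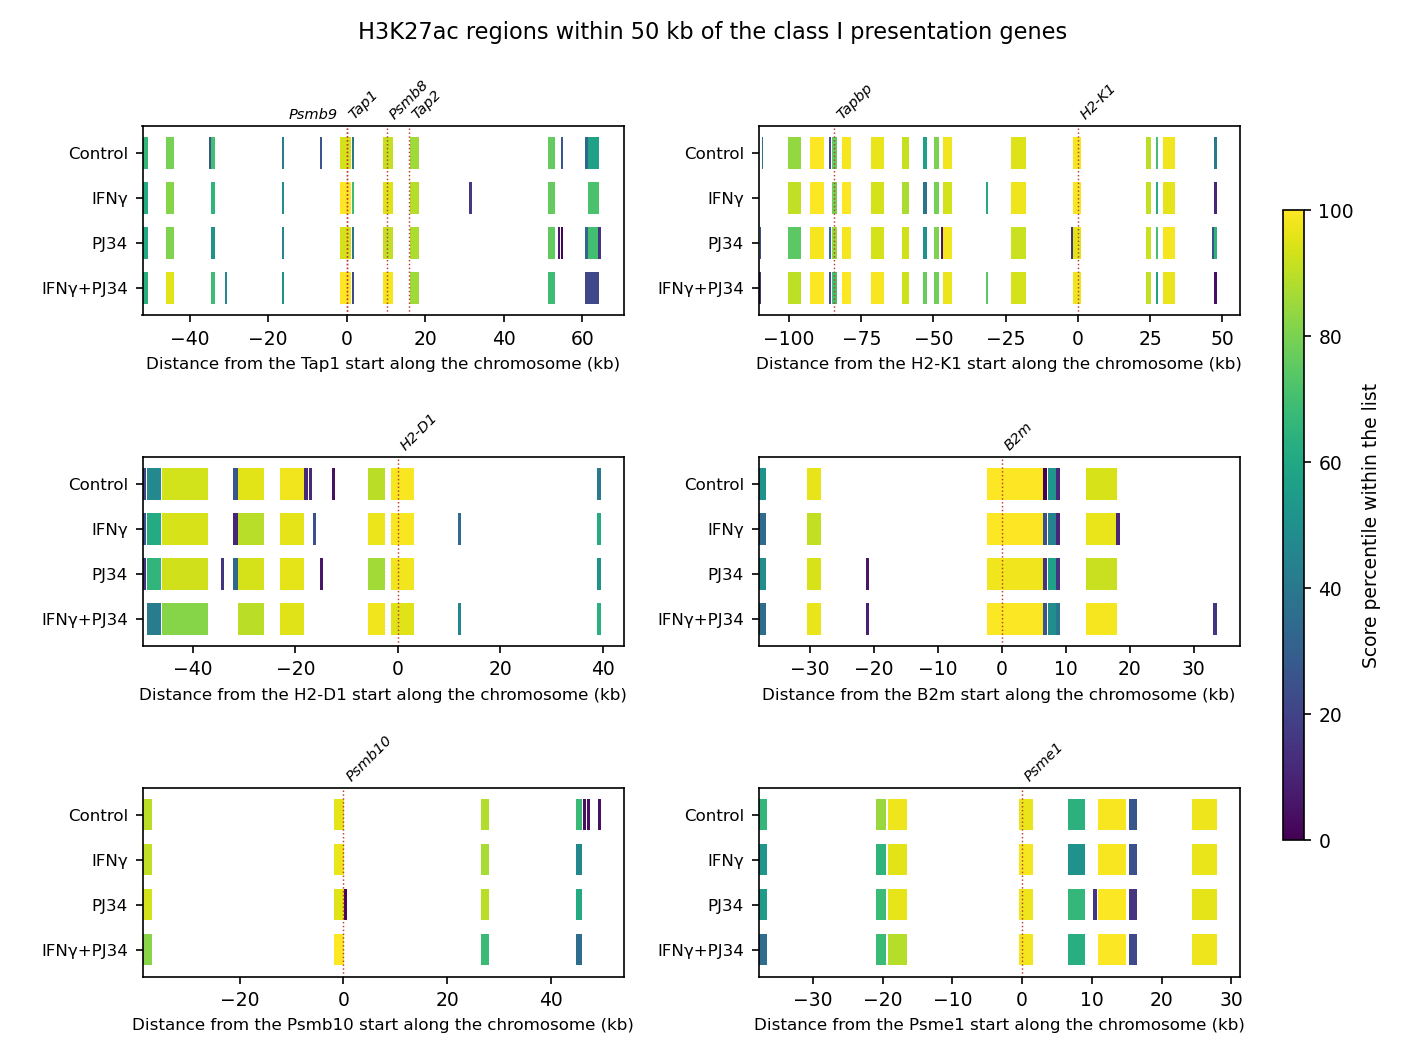
Regions within 50 kb of the class I presentation genes at the 6 loci, plotted by distance in kb from the start of the named gene along the chromosome. Each bar is a merged region drawn in every list that holds it (at least 600 bp wide), coloured by its score percentile in that list, and dotted lines mark the starts of the genes. The strongly marked start site regions recur in all 4 lists, and most of the regions that come and go are narrow and of low percentile.

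Few regions near these genes appeared with IFNγ. Of 58 regions in the IFNγ list, 5 were absent from Control, or 8.62% (Clopper-Pearson 95% interval 2.86 to 18.98%), against 18.1% of all IFNγ regions. These intervals cover counting error only and treat neighbouring regions as independent. All 5 were distal, meaning that no protein-coding start site lay within 1 kb. None of the 35 IFNγ regions at a start site was absent from Control, against 346 of 11457, or 3.02%, of all IFNγ regions at a start site. For distal regions the share was 5 of 23, or 21.7%, against 26.7% of all distal IFNγ regions. Near the genes 41 of 84 regions lay at a start site, against 13393 of all 55203, so much of the lower share went with position. Since neighbours share regions, 8 of the 10 genes had an IFNγ region absent from Control within 50 kb, against 24% of all genes, and the genes without one were Psmb10 and Psme1.

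The 5 added regions were weak apart from 1. The highest lay between Vps52 and H2-K1, 28.3 kb from the H2-K1 start (chr17:33968652-33969202), at percentile 60.2 in IFNγ and 74.6 in IFNγ+PJ34, with fold enrichments of 6.71 and 15.4, and it was absent from Control and PJ34. The next, 8.45 kb from the H2-D1 start (chr17:35274475-35274931), showed the same pattern at percentiles 34.3 and 45.6. The other 3 were found in IFNγ alone, at percentiles between 10.4 and 24.3, of which the region 13.8 kb from Tap2 stood at 17.0. Thus 2 of the 5 were found again in IFNγ+PJ34 and 0 of the 5 in PJ34 (95% intervals 5.27 to 85.3% and 0 to 52.2%), where 35.0% and 38.9% of the 5747 added regions of the whole lists were found. The region near H2-K1 is printed because it was the strongest site that both lists with IFNγ held and both without it lacked. It contained a GAANNGAAA match, in capitals, and no GAS match.
Between Vps52 and H2-K1 (chr17:33968745-33969044, plus strand): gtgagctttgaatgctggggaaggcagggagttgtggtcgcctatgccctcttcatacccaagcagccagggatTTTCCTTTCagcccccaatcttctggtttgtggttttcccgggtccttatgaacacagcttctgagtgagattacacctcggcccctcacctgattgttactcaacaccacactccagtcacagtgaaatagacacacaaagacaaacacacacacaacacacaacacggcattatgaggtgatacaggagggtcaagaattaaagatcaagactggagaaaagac

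Of 65 Control regions near the genes, 12 were absent from IFNγ, or 18.5% (9.92 to 30.03%), against 32.3% of all Control regions. The highest of them were a region at the Kifc1 start, 24.6 kb from Tapbp, at percentile 36.8, and a region in an H2-Ob exon, 43.3 kb from Tap2, at percentile 32.5. None of the 12 was a promoter region of the 10 genes. By position the shares absent from IFNγ were 5.4% at a start site, against 9.7% of all such Control regions, and 35.7% for distal regions, against 42.9%. At the promoters of the 10 genes, 10 of 12 regions were in all 4 lists, and the other 2 were weak PJ34 peaks beside the H2-K1 and Psmb10 start regions, at percentiles 15.3 and 0.855. Of all 84 regions 51 were in all 4 lists, or 60.7%, against 38.9% of all regions. Much of this went with position: 35 of 41 regions at a start site were in all 4 lists, or 85.4%, against 79.4% of all start site regions, and 16 of 43 distal regions, or 37.2%, against 25.9% of all distal regions.

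Among the 53 regions found in both IFNγ and Control, the median percentile changed little. The median percentile change was -0.08 points (95% interval -1.77 to 0.91), against -2.31 points over all regions found in both lists. A change of at least 10 percentile points was used as a call, which cannot be a rise for a region above the 90th percentile. By that call 5 regions were higher in IFNγ (14.9% of all regions) and 8 were lower (28.7% of all). All 5 were distal, and the one next to the Psmb9 and Tap1 promoter, in a Tap1 intron, moved by 28.3 points. By fold enrichment, 6 regions were at least 2-fold higher than in Control after centring (8.88% of all) and 1 was at least 2-fold lower (9.14% of all), and without centring the counts were 3 and 3. The 6 were the Psmb9 and Tap1 promoter, the Psmb8 promoter, the region upstream of H2-D1, the Tap1 intron, an H2-Ob intron and a weak region in a Patl2 intron 6.43 kb from B2m, the last 3 being named here after their values were seen. The 1 lower region lay 19.5 kb from Psme1, with fold enrichments of 24.5 in Control and 7.505 in IFNγ. Of the 10 genes, 9 had a higher promoter percentile in IFNγ than in Control, the exception being B2m, against 36.7% of genes with a promoter region in all 4 lists. In this and the later counts by gene, Psmb9 and Tap1 enter separately although they share a region. At Tap2, Tapbp, H2-K1 and H2-D1 the percentile rose by 3.22, 0.74, 0.43 and 0.10 points, while the fold enrichment before centring was lower in IFNγ.

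**Figure D3:**
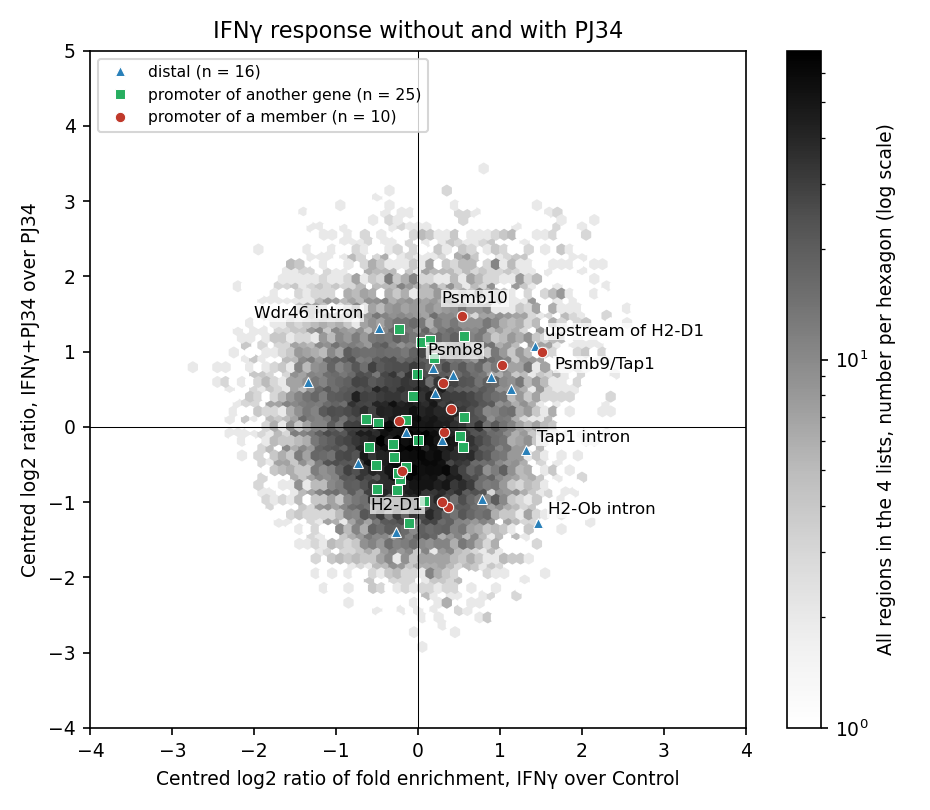
Centred log2 ratio of fold enrichment for IFNγ over Control (x axis) and for IFNγ+PJ34 over PJ34 (y axis), for the 21467 regions found in all 4 lists (grey hexagons, log colour scale) and the 51 of them near the class I presentation genes (coloured symbols, by position). The Psmb9/Tap1 and Psmb8 promoters and the region upstream of H2-D1 lie to the right and above 0, the H2-D1 promoter lies below 0 on the y axis, and the Tap1 and H2-Ob intron regions are high on the x axis only.

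The same response was compared with PJ34 present in both lists. Among 55 regions in IFNγ+PJ34 and PJ34 the median percentile change was -0.43 points (-3.82 to 1.67), against -2.61 points over all regions. By percentile 8 regions were higher in IFNγ+PJ34 (22.1% of all) and 14 lower (30.9% of all). By centred fold enrichment 7 were at least 2-fold higher (15.9% of all) and 4 at least 2-fold lower (11.1% of all), and without centring there were 7 of each. The 7 included the Psmb10 promoter and the region upstream of H2-D1, and the Psmb9 and Tap1 promoter, at 0.99 on the log2 scale, fell just short. The other 5 of the 7 were the Daxx and Platr17 promoters, the Wdr46 intron region and the promoters of the class II chaperone genes H2-DMb1 and H2-DMb2. At H2-DMb1 the fold enrichment was lowest in PJ34, at 5.29, with 13.9 in Control, 9.19 in IFNγ and 12.4 in IFNγ+PJ34. The 4 lower ones included the 5′ Tapbp region, at -1.06. Of 60 regions in IFNγ+PJ34, 5 were absent from PJ34, or 8.33% (28.9% of all), and of 67 in PJ34, 12 were absent from IFNγ+PJ34, or 17.9% (32.4% of all). The promoter percentile was higher in IFNγ+PJ34 than in PJ34 for 8 of the 10 genes, and for 26.6% of genes with a promoter region in all 4 lists. By centred fold enrichment, 6 of the 10 promoter regions of these genes found in both lists were higher. At Tapbp the percentile rose by 0.53 points while the fold enrichment fell from 73.2 to 46.4.

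PJ34 in cells given IFNγ was described by setting IFNγ+PJ34 beside IFNγ, a list that also enters the comparison with Control. Of 60 regions in IFNγ+PJ34, 7 were absent from IFNγ, or 11.7% (28.9% of all), and the highest of these was a region in an H2-DMb1 intron, 26.6 kb from Psmb9, at percentile 47.3. Of 58 regions in IFNγ, 5 were absent from IFNγ+PJ34, or 8.62% (23.2% of all), and these were distal and of percentile 24.3 or less. The median percentile change over the 53 shared regions was 0.01 points (-0.93 to 2.11), against 0.27 over all. There were 6 regions higher by percentile (26.1% of all) and 7 lower (21.4% of all), and by centred fold enrichment 3 at least 2-fold higher (12% of all) and 6 at least 2-fold lower (9.59% of all), or 3 and 5 without centring.

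Among the promoters of the 10 genes, H2-D1 was the one at least 2-fold lower in IFNγ+PJ34 than in IFNγ, with a centred log2 ratio of -1.30, below that of all but 4.97% of regions. Psmb8 and Psmb10 stood on the other side, at 0.37 and 0.51. These 2 were also the genes with a higher promoter percentile in IFNγ+PJ34 than in IFNγ, 2 of 10 against 40.1% of genes overall. The 2 largest losses of fold enrichment were distal and lay in the block from Psmb9 to Tap2: the Tap1 intron region, at fold enrichments of 5.36, 10.4, 4.51 and 3.47 in Control, IFNγ, PJ34 and IFNγ+PJ34, and the H2-Ob intron region, at 5.42, 11.6, 10.0 and 3.96. At the Tap1 intron the IFNγ list stood alone, whereas at the H2-Ob intron IFNγ and PJ34 were both above Control and IFNγ+PJ34.

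PJ34 alone left most regions near the genes in place. Of 67 PJ34 regions, 11 were absent from Control, or 16.4% (21.3% of all), and of 65 Control regions, 9 were absent from PJ34, or 13.8% (26% of all). Among 56 shared regions 6 were higher by percentile (18.5% of all) and 5 lower (20.1% of all), 1 was at least 2-fold higher by centred fold enrichment (5.22% of all) and 2 at least 2-fold lower (7.9% of all), the last 2 counts being 0 and 3 without centring. The median percentile change was -0.46 points (-1.72 to 0.53), against 0.31 over all regions. Promoter percentiles were higher in PJ34 than in Control for 5 of the 10 genes, against 59.1% of genes overall. The H2-K1 and B2m promoters were on the lower side, with centred log2 ratios of -0.76 at H2-K1 and -0.60 at B2m, while H2-D1 was at 0.01, and Psmb8 and the shared Psmb9 and Tap1 promoter were on the higher side, with 0.60 and 0.52.

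**Figure D4:**
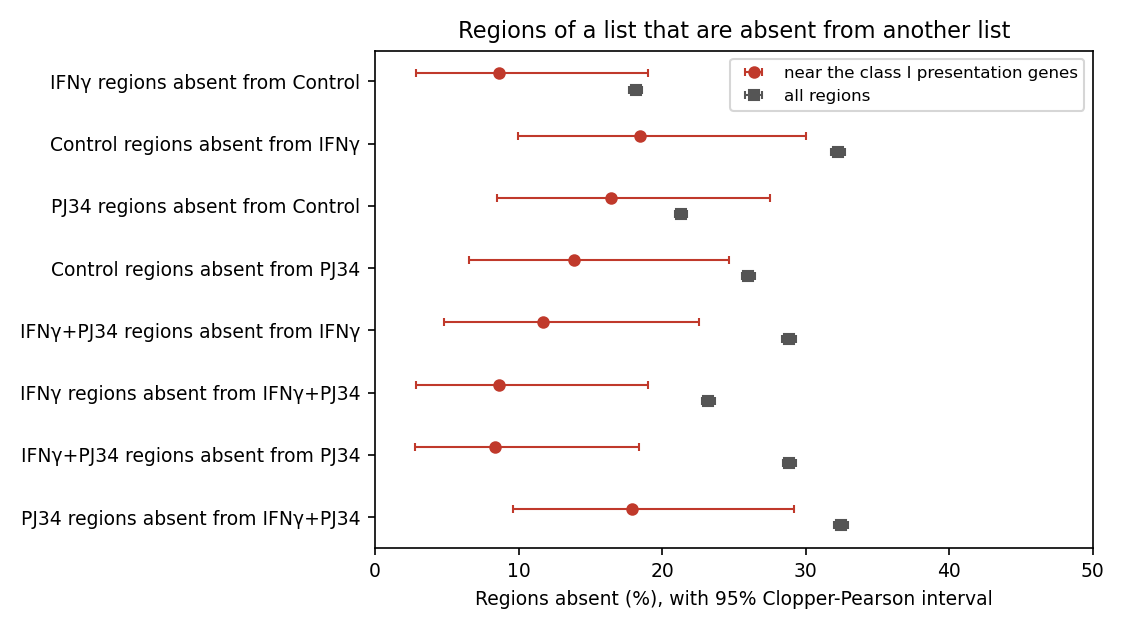
Share of the regions of 1 list that are absent from another, in percent, for regions near the class I presentation genes (red circles) and for all regions (grey squares), with Clopper-Pearson 95% intervals that cover counting error only. Near the class I presentation genes the shares run from 8.33% to 18.5%, and each is below the share over all regions. The sets are not matched for position, and a larger part of the regions near the genes lies at a start site.

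Other genes of the pathway were read at their promoters in the same lists. All 10 genes of peptide loading and class I regulation had a promoter region in all 4 lists (48.3% of all protein-coding genes). A higher percentile in IFNγ than in Control was seen at 4 of them. This was near the share of 36.7% over genes with a promoter region in all 4 lists. The largest rise was at Nlrc5, the transactivator of class I genes, at percentile 84.6 in Control, 87.0 in PJ34, 92.4 in IFNγ and 96.1 in IFNγ+PJ34. Erap1, which trims peptides in the endoplasmic reticulum, was next and moved only from 92.0 to 92.9. The largest falls were at Rfxank, a subunit of the RFX factor that binds MHC promoters (79.4 to 72.2), and at the chaperone Calr (96.5 to 90.2).

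The 14 subunits of the constitutive 20S proteasome, whose catalytic members the immunoproteasome subunits replace, all had promoter regions in all 4 lists. Their percentile was higher in IFNγ than in Control for 12 of 14 (36.7% of genes with a promoter region in all 4 lists). The median change was 3.19 points where that over all genes was -1.34. Their percentile was also higher in PJ34 than in Control for 13 of 14 (59.1% of such genes), by a median of 3.03 points (0.75 over all genes). It was higher in IFNγ+PJ34 than in IFNγ for 1 of 14 (40.1% of such genes), with a median of -7.97 points (-1.25 over all genes). A higher percentile in IFNγ than in Control was thus also seen at most of the constitutive subunits. The largest rises were at Psma5 (90.4 to 99.0) and the catalytic subunit Psmb5 (88.4 to 95.3), and the percentiles that fell were those of Psmb1 (84.7 to 79.8) and Psma6 (96.6 to 93.2). In IFNγ+PJ34, Psmb5 was at 77.5 and Psmb8, which takes its place, at 98.4.

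The 8 genes of the proteasome activator and assembly list all had promoter regions in all 4 lists. Of these 3 had a higher percentile in IFNγ than in Control, near the share of 36.7% over genes with a promoter region in all 4 lists. The largest rises were at Psme4 (90.3 to 94.9) and the immunoproteasome assembly factor Pomp (95.4 to 98.2). The largest falls were at the assembly chaperones Psmg4 (95.8 to 90.6) and Psmg1 (77.0 to 73.3). Of 14 other class I and class Ib heavy chain genes, 10 had a promoter region in all 4 lists and H2-Q1, H2-Q2, H2-Q10 and H2-T3 had none in any list. The percentile was higher in IFNγ than in Control for 8 of the 10, against 36.7% of genes with a promoter region in all 4 lists. The largest rises were at H2-Q6 (36.8 in Control, 68.6 in PJ34, 64.5 in IFNγ and 31.8 in IFNγ+PJ34) and H2-Q7 (59.7, 78.4, 83.6 and 21.9 in the same order), so that PJ34 alone was also above Control and IFNγ+PJ34 was the lowest list at both. The largest falls were at Fcgrt, the neonatal Fc receptor (66.3 to 17.0), and Mr1, which presents vitamin metabolites (57.0 to 38.4). The H2-Q genes are near copies of one another, and reads at them can be hard to assign. Repeated sequence was not counted at these genes, and its part in their values was not tested.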

How the data were processed

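H3K27ac ChIP-seq and input DNA of BMDMs were deposited as 16 samples (8 ChIP, 8 input, 2 replicates of each for 4 conditions), and samples were grouped by their titles. Per the study's methods, the authors mapped reads to mm10 (Bowtie), filtered for quality and unique mapping (Samtools, Picard), called relaxed peaks per replicate over input (MACS) and kept, for each condition, peaks overlapping between its replicates. The deposited values were a score, a fold enrichment (a ratio over background), and p-values and q-values as −log10. The lowest deposited −log10 p-value was 2.03. Depth is unknown, since the lists hold no counts.

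Percentiles were midranks of the score within a list, and a region took its highest peak. Regions were peaks overlapping by 1 bp or touching. Start sites came from GENCODE M21 (GRCm38, the same build as mm10, with all peak ends inside its chromosomes), and sequences and promoter windows came from RefSeq GRCm38. Tap2 had no RefSeq window. Centred ratios, the ranking by −log10 p and 2 motif letterings were added after the data were seen. The members and lists were chosen with earlier results of these data known. All 10 genes were named. From the other lists, genes whose promoter state differed between lists were to be named, or otherwise the 2 largest rises and 2 largest falls from Control to IFNγ. Gained or lost regions were the highest near each locus, at most 3 a comparison. Others were chosen after their values were seen. Shares have exact Clopper-Pearson 95% intervals and medians have exact order-statistic 95% intervals. With 1 list per condition no test was made. The functions were tested on simulated data. Python 3.11.15, numpy 2.4.6, pandas 2.3.3 and scipy 1.17.1 were used. Alternatives were the merging distance, the windows, the ranking value, a q limit, equal list lengths, a wider promoter and no centring.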

Additional observations from a re-analysis of the deposited data

Results flagged for a closer look

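At 4 of the 51 regions found in all 4 lists, or 7.84%, IFNγ went with a percentile change of at least 10 points in opposite directions without and with PJ34. Over the whole lists this held for 2394 of 21467 regions, or 11.2%, so the share near the class I presentation genes was below that background. With 1 list per condition the difference was not tested. In the Tap1 intron the change was 28.3 points from Control to IFNγ and -16.4 points from PJ34 to IFNγ+PJ34. In the H2-Ob intron 43.9 kb from Tap2 it was 14.3 and -47.9 points, and in the intergenic region 46.3 kb from H2-D1 it was 14 and -24.3 points. The region in a Wdr46 intron, 26.8 kb from Tapbp, went the other way, with -18.6 and 25.9 points. A further 6 of the 51 regions moved by at least 10 points in the same direction in both comparisons, as did 3113 of the 21467 regions of the whole lists.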

How the results depend on the processing

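No paired analysis was possible because the deposited lists merge both replicates of a condition, so that leaving out a replicate could not be tried either. Of 184 recomputed values, 81 for comparisons and 80 for single promoters stayed within the limits set for them (the interval of a share or median, 1.5 times a count, or 0.5 on the log2 scale), and 23 moved. The 80 values for single promoters are no evidence of stability. Each setting left the promoter's own fold enrichments unchanged and shifted only the centring median. The largest shift, without centring, was the log2 median of -0.36 for IFNγ over Control. Such a shift can neither pass 0.5 nor reverse a ratio of at least 2-fold. Psmb9 and Tap1, which share a region, were also counted separately. Merging peaks up to 1 kb apart lowered the share of Control regions absent from IFNγ to 8.33%. Within 10 kb, 1 added region was left and it was found in IFNγ+PJ34 (100%). Ranking by width moved the median change to 2.17 points for IFNγ minus Control and to -1.53 for IFNγ+PJ34 minus IFNγ, each of opposite sign to the value by score, and other settings also changed the sign of medians near 0, within their intervals. Without centring the small log2 ratios of Tap2, H2-K1 and H2-D1 for IFNγ over Control changed sign, as given above. The counts of regions at least 2-fold changed are small and moved most. For IFNγ over Control the higher count was 3 without centring, and the lower count was 0 with the 1 kb merge, 0 within 10 kb, 5 within 100 kb and 3 without centring. For PJ34 over Control the higher count was 2 with the merge, 0 within 10 kb, 3 within 100 kb and 0 without centring, and the lower count was 1 with the merge, 0 within 10 kb and 4 within 100 kb. For IFNγ+PJ34 over IFNγ the higher count was 0 within 10 kb, and the lower count 2 within 10 kb and 12 within 100 kb. For IFNγ+PJ34 over PJ34 the higher count was 3 within 10 kb, and the lower count 1 within 10 kb, 16 within 100 kb and 7 without centring. Narrower windows hold fewer regions, and the causes of the other shifts were not tested. Absence from a list may also reflect a peak just under the authors' threshold.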
